A study of Mus musculus with 3 samples.

Results

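The 38 genes described here carry out or control the synthesis of cholesterol and fatty acids and the export of surplus sterol. They were chosen by name, with no measured value in the rule, and make up 38 of the 15762 named genes whose probe was well above background on at least 1 array. By role they fall into 7 genes of the mevalonate steps, 11 genes of the squalene and sterol steps, 6 genes of sterol sensing and transport, 9 genes of fatty acid synthesis, elongation and desaturation, and 5 genes of sterol export under the liver X receptors (LXR). The mevalonate genes and the squalene and sterol genes together are called the 18 sterol synthesis genes below.

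Cells build cholesterol from acetyl-CoA through mevalonate, isoprenyl diphosphates, squalene and lanosterol, and a series of enzymes then trims lanosterol to cholesterol. When sterol in the endoplasmic reticulum is low, the escort protein Scap carries the membrane-bound factors encoded by Srebf1 and Srebf2 to the Golgi, where they are cut and released to switch on these genes; when sterol is high, Insig proteins hold Scap back. Oxidised sterols activate LXR, which switches on the exporters that move cholesterol out of the cell, and endothelial cells depend on both arms for the make-up of their membranes.

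RNA was measured in cells described as primary endothelial cells, grown from the cavernous (erectile) tissue of the penis of C57BL/6 mice. Their medium held fetal bovine serum and VEGF-A. The markers given below do not establish the endothelial name. The labels give 3 groups of 1 array each: normal glucose (5 mmol), high glucose (30 mmol), and high glucose (30 mmol) with 200 pmol of an siRNA against Ninj1, delivered with Lipofectamine, a lipid transfection reagent. Cells were kept for 48 h, and the RNA on each array was a pool over 3 numbered samples. No control siRNA or mock transfection is mentioned in the labels for the 2 groups that lack the Ninj1 siRNA. With 1 array a group there is no replicate check, so values are given without a test and each difference describes these arrays only. In a bulk sample, fewer cells of a type and less RNA per cell cannot be told apart.

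The targeted gene goes against the labels. Ninj1, an adhesion protein of the cell surface, had a processed signal of 20413 for the normal-glucose label, 16291 for the high-glucose label and 25539 for the siRNA label. It was highest on the array labelled siRNA, 1.34-fold above the array labelled high glucose after scaling (1 probe, 1 spot an array). The deposited files' names also swap the group words of the high-glucose pair, and the slide positions inside the files are 2, 3 and 1 where the file names have 1, 3 and 2. Groups follow the labels here. Every direction below depends on that assignment, and with the 2 high-glucose arrays exchanged each value lower than that of the high-glucose group becomes a higher one.

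Signals are background-subtracted intensities in linear units, read from a single slide and scan. Signals on the 3 arrays are given in the order normal glucose, high glucose and siRNA throughout. Differences are on the log2 scale after each array's 75th percentile was subtracted, which removes a shift of 0.23 between the siRNA and high-glucose labels, so a raw signal can be a little higher on the siRNA array where the scaled difference is below 0. The share of probes well above background was 67.1% to 70.6%. Spots of 300 repeated probes gave an SD of 0.08 for a difference between 2 spots, which covers spot noise only and no error of culture, pooling or hybridisation. All 38 genes were well above background on all 3 arrays, each read from 1 spot of its brightest probe.

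Sterol synthesis genes were lower for the siRNA label than for the high-glucose one, all 18 of 18, with a median log2 difference of -0.87. Fatty acid genes differed less, with 8 of 9 lower and a median of -0.29. Over the 15626 genes compared the median was 0.01, 47.5% were lower and the central 95% ran from -1.85 to 1.63. Of the 38 genes, 36 were lower and 2, Scap and Scd1, were higher. Scap, Abca1 and Stard4 have no settled direction for reasons given with each. Acaca and Scd1 kept their direction under the settings that kept the assignment of arrays. Like Scap and Abca1, however, they lay within 2 SD of spot noise (0.16). The other 34 genes were lower by more than that at their brightest probe. At a threshold of 2-fold, 9 of 38 were lower, where 8.21% of all genes were: Tm7sf2, Acat2, Idi1, Pmvk, Nsdhl, Mylip, Hmgcs1, Insig1 and Nr1h3. None of the 38 was 2-fold higher, where 6.51% of all genes were. At 1.5-fold, 20 of 38 were lower, against 15.8% of all genes. With the 2 high-glucose arrays exchanged, these counts at 2-fold become 0 lower and 9 higher.

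**Figure D1:**
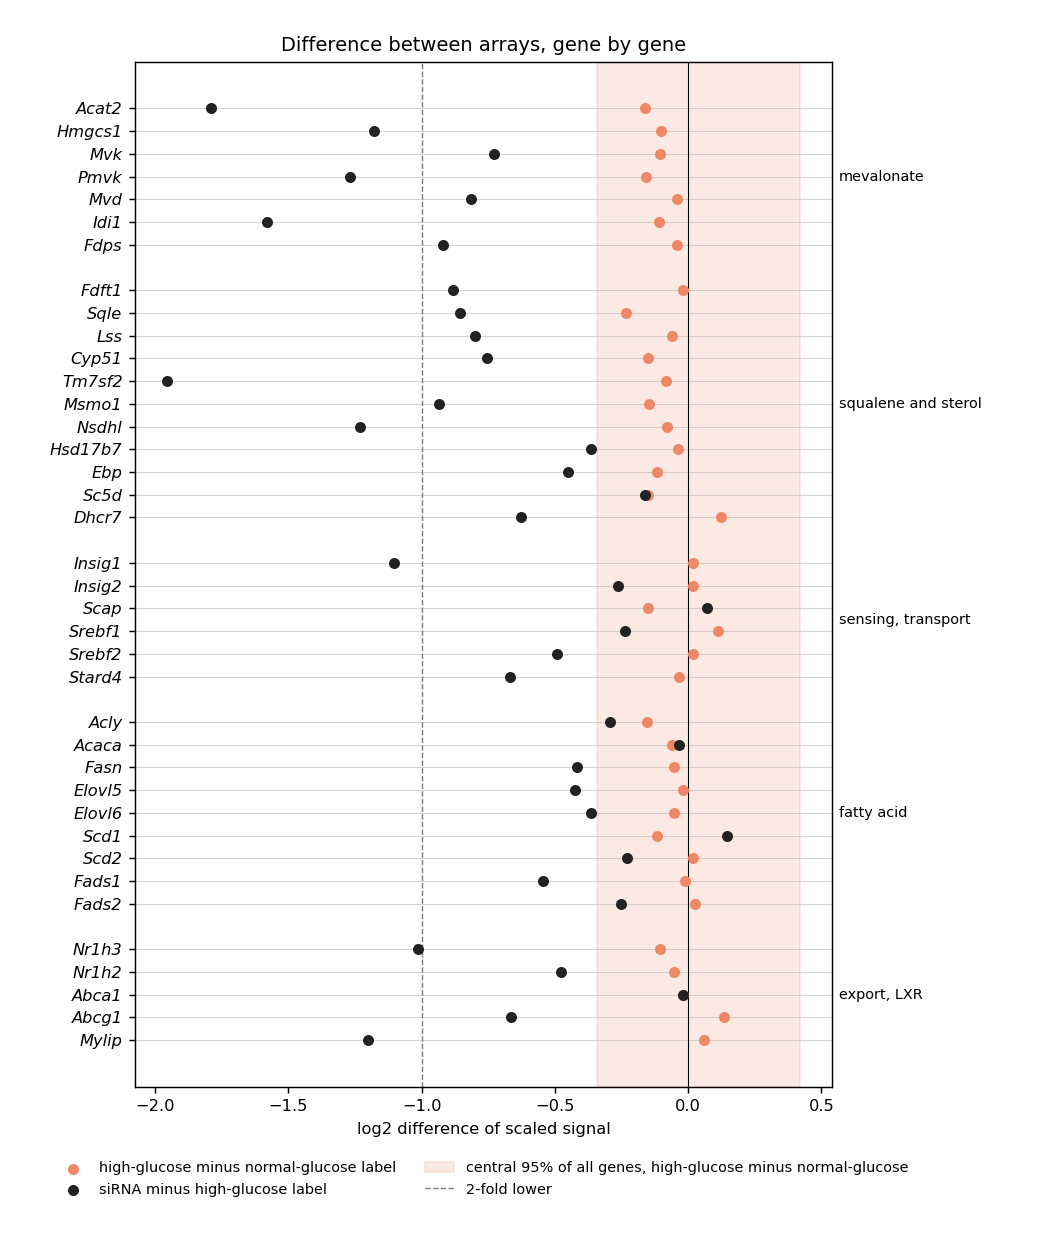
Log2 difference of scaled signal for each of the 38 genes, grouped by role, for the siRNA minus the high-glucose label (black) and the high-glucose minus the normal-glucose label (orange), which share the high-glucose array. The shaded band is the central 95% of all genes for high minus normal glucose and the dashed line marks 2-fold lower. Black points of the mevalonate genes run from -1.79 to -0.73, while every orange point lies between -0.23 and 0.14. The small differences of Scap and Abca1 between the siRNA and high-glucose labels change sign under another normalization or background correction.

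The mevalonate steps turn acetyl-CoA into the isoprenyl diphosphates from which squalene is made. All 7 genes were lower for the siRNA label than for the high-glucose one, with a median of -1.18. Of them 4 were at least 2-fold lower, where 8.21% of all genes were. Acat2, the cytosolic thiolase that joins acetyl-CoA units at the start of the route, had signals of 737, 640 and 216. It was 3.46-fold lower on the siRNA array than on the high-glucose array, a log2 difference of -1.79, and the first 2 arrays lay close together. The mouse genome holds a close copy, Acat3, and whether the probe separates the copies was not tested. Hmgcs1, which makes HMG-CoA and is a classic target of the sterol-regulated factors, had signals of 10909, 9887 and 5118. The siRNA array was lowest, 2.26-fold below the high-glucose array (-1.18 on the log2 scale).

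The kinases and the decarboxylase that follow differed by unequal amounts. Mvk, mevalonate kinase, had signals of 10239, 9243 and 6528, a log2 difference of -0.73. Pmvk, phosphomevalonate kinase, had signals of 6364, 5536 and 2690, a log2 difference of -1.27, or 2.41-fold lower. Mvd, the decarboxylase that yields isopentenyl diphosphate, had signals of 877, 827 and 550 and a difference of -0.82. For each of the 3 enzymes the arrays labelled normal and high glucose lay close to each other and the siRNA array stood below both. Idi1, the isomerase that interconverts the isoprenyl units, had signals of 6726, 6050 and 2367, 2.99-fold lower on the siRNA array (-1.58 on the log2 scale). Fdps, which condenses these units into farnesyl diphosphate, the branch point towards sterols and protein prenylation, had signals of 11522, 10888 and 6734 and a difference of -0.92. Idi1 therefore stood further below the high-glucose array than Fdps, the enzyme that uses its product.

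The squalene and sterol steps begin where farnesyl diphosphate is committed to sterols. All 11 genes were lower for the siRNA label than for the high-glucose one, with a median of -0.80 and a range from -1.96 to -0.16. Of them 2 were at least 2-fold lower, where 8.21% of all genes were. Fdft1, squalene synthase, had signals of 2783, 2665 and 1691 and a log2 difference of -0.88. Sqle, squalene epoxidase and a control point of the pathway, had signals of 9760, 8065 and 5209 and a difference of -0.86. Lss, the cyclase that forms lanosterol, had signals of 444, 414 and 278 and a difference of -0.80. These 3 enzymes, which act in sequence, had differences close to each other, from -0.88 to -0.80, and in each the siRNA array was the lowest.

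Among the enzymes that trim lanosterol, the differences were the least alike. Tm7sf2, a sterol reductase that shares its reaction with the lamin B receptor, had signals of 6955, 6375 and 1923. Its log2 difference of -1.96, 3.88-fold lower, was the largest of the 38 genes, and its other probe gave -2.02. Cyp51, the lanosterol demethylase whose product Tm7sf2 reduces, had signals of 583, 510 and 354 and a difference of -0.76. Msmo1, which oxidises the methyl groups next, had signals of 25296, 22201 and 13585 and a difference of -0.94. Nsdhl, the dehydrogenase that acts after Msmo1, had signals of 878, 809 and 403, 2.35-fold lower on the siRNA array (-1.23 on the log2 scale), with -1.13 at its other probe. Tm7sf2 and Nsdhl were thus the only 2 of these 11 genes past 2-fold on the siRNA array.

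The late enzymes of the route stood nearer to the high-glucose array. Hsd17b7, the reductase that completes removal of the methyl groups, had a log2 difference of -0.37, and Ebp, the isomerase that moves the double bond of the ring, one of -0.45. Sc5d, the desaturase that follows Ebp, had signals of 5684, 4971 and 5195 and a difference of -0.16, the smallest of the 18 sterol synthesis genes. Dhcr7, a reductase at the end of the route, had signals of 265, 281 and 213 and a difference of -0.63. Dhcr7 thus stood further below the high-glucose array than Hsd17b7, Ebp and Sc5d.

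**Figure D2:**
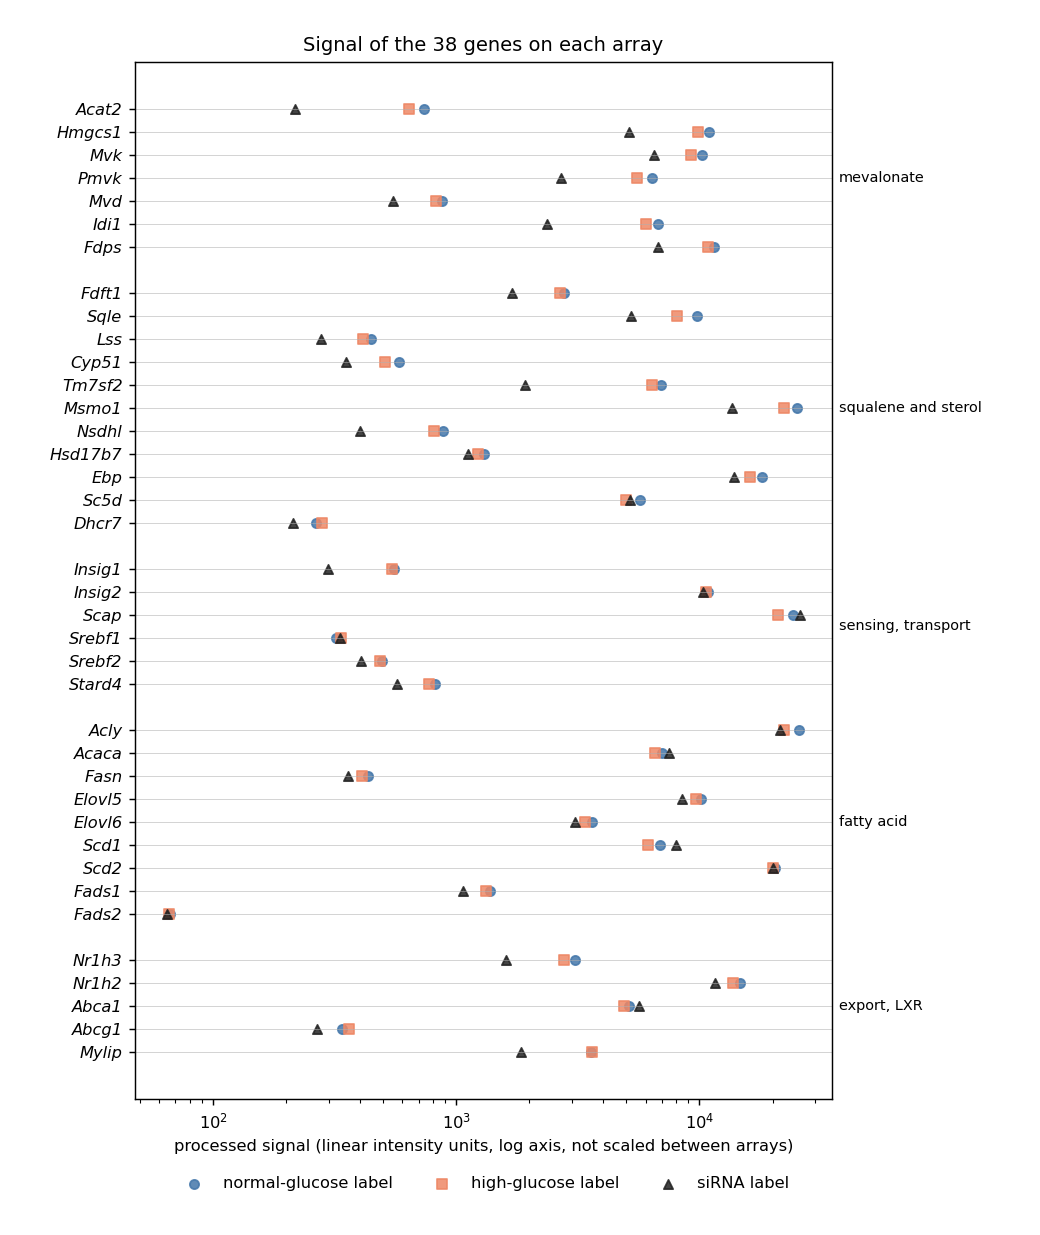
Processed signal of each of the 38 genes on each array (linear intensity units on a log axis, not scaled between arrays), 1 spot a gene and array, grouped by role. Points of the normal-glucose and high-glucose labels lie nearly on each other for most genes, while the point of the siRNA label is the lowest of the 3 for 32 of 38 genes, for example Tm7sf2 at 1923 against 6375 for the high-glucose label.

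The promoters of Tm7sf2, Acat2 and Idi1, the 3 genes with the largest differences, are printed to show what stands in front of genes that differed together. Hmgcs1 is added as the one gene with the letters of a sterol regulatory element, and Sc5d for contrast. Each is the 250 bases before the transcription start on the gene's own strand, 5′ to 3′, from RefSeq on build GRCm38.p6. The windows are chr19:6067851-6068100 (minus strand) for Tm7sf2, chr17:12960726-12960975 (minus strand) for Acat2, chr13:8885356-8885605 (plus strand) for Idi1, chr13:119690101-119690350 (plus strand) for Hmgcs1 and chr9:42264301-42264550 (minus strand) for Sc5d. Capitals mark every match, on either strand, to TCACNCCAC (the letters of a sterol regulatory element), CACGTG (an E-box), CCAAT (the NF-Y box, ATTGG when read on the other strand) or GGGCGG (the Sp1 box, CCGCCC on the other strand). No 2 matches overlap in these windows.
Tm7sf2: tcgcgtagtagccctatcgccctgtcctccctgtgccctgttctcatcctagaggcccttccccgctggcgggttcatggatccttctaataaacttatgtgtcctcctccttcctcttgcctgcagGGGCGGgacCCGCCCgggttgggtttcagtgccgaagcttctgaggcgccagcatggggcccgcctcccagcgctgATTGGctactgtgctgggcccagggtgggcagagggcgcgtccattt
Acat2: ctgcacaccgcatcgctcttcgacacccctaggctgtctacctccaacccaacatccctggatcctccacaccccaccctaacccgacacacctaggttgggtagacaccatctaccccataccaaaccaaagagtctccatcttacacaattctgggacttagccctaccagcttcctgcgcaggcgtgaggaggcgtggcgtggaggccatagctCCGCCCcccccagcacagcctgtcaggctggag
Idi1: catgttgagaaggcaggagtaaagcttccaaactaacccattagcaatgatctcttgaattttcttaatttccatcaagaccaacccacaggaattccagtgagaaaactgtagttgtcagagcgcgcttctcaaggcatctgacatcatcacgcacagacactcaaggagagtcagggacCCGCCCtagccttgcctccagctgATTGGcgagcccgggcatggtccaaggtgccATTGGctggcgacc
Hmgcs1: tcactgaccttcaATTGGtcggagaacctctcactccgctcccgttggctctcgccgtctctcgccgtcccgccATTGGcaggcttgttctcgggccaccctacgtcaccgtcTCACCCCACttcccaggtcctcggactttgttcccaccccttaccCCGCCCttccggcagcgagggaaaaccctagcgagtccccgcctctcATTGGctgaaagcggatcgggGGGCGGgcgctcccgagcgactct
Sc5d: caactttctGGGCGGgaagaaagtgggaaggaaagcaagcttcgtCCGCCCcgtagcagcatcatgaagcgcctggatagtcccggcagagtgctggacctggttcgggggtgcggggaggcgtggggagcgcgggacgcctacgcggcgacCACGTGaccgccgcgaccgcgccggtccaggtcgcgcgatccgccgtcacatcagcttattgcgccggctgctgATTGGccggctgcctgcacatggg

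Hmgcs1 was the only gene of the 30 with a window that held TCACNCCAC, as TCACCCCAC 137 to 129 bases before the start, with CCAAT matches on either side of it. NF-Y and Sp1 are known to act beside the sterol-regulated factors on such promoters. Promoter windows were at hand for 30 of the 38 genes and 15 of the 18 sterol synthesis genes, those not matched being Fdps, Fdft1, Sqle, Stard4, Scd1, Scd2, Fads1 and Abcg1. CCAAT stood in a window of 14 of the 15 sterol synthesis genes (93.3%), against 37.5% of the 27025 genes with a window, and GGGCGG in 14 of 15 (93.3%), against 35.4%. CACGTG stood in 3 of 15 (20.0%), against 6.86% of all genes, and TCACNCCAC in 1 of 15, against 1.22%. The 27025 genes were taken whether or not they were read on the arrays. They were not matched to the sterol synthesis genes in signal or in share of G and C bases. Of the 6 fatty acid genes with a window, 2 held CCAAT and 2 held GGGCGG. Tm7sf2, Idi1 and Sc5d all held CCAAT and GGGCGG, and Acat2 held GGGCGG alone. The log2 differences of these genes ran from -1.96 (Tm7sf2) to -0.16 (Sc5d). A match is a description of letters and not a binding site.

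The sterol sensing and transport genes were split. Insig1, an anchor that holds Scap back when sterol is high and is itself a target of the sterol-regulated factors, had signals of 554, 544 and 296. It was 2.15-fold lower for the siRNA label than for the high-glucose one (-1.11 on the log2 scale). Insig2, the second anchor, had signals of 10823, 10654 and 10387 and a difference of -0.26. Scap had signals of 24143, 21121 and 25993 and a difference of 0.072, which became -0.024 with quantile normalization and -0.040 with cyclic loess, so it has no settled direction. Of the anchors and the escort, Insig1 was thus the one that stood apart on the siRNA array.

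The transcripts of the factors themselves differed by less than the median sterol synthesis gene. Srebf1, whose product acts mainly on fatty acid genes, had signals of 319, 335 and 333 and a log2 difference of -0.24. Srebf2, whose product acts mainly on sterol genes, had signals of 495, 487 and 405 and a difference of -0.49. These are transcript levels and do not measure the cut, active form of either factor. Stard4, a soluble carrier of cholesterol between membranes, had signals of 814, 773 and 568 and a difference of -0.67, but its other, dimmer probe read 38.5, 28.3 and 46.3 and a difference of 0.48. The 2 probes of Stard4 go opposite ways, so no direction is given for it. Over the 6 genes the median was -0.38.

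Fatty acid genes lay closer to 0. Of the 9, 8 were lower for the siRNA label than for the high-glucose one and 1 was higher, with a range from -0.54 to 0.15. None was 1.5-fold lower, where 15.8% of all genes were, and none was 1.5-fold higher. Acly, which supplies cytosolic acetyl-CoA to both pathways, had a log2 difference of -0.29. Acaca, the carboxylase that commits acetyl-CoA to fatty acids, had signals of 7019, 6544 and 7487 and a difference of -0.033. Fasn, fatty acid synthase, had signals of 435, 408 and 357 and a difference of -0.42. The elongases Elovl5 and Elovl6 had differences of -0.42 and -0.36, close to that of Fasn.

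The desaturases differed by unequal amounts. Scd1, which makes monounsaturated fatty acids, had signals of 6868, 6152 and 7975 and a difference of 0.15, the highest of the 38 genes, while Scd2, its close relative, had a difference of -0.23. Fads1, a desaturase of polyunsaturated fatty acids, had signals of 1373, 1323 and 1061 and a difference of -0.54, the lowest of the fatty acid genes. Its partner Fads2 was dim, with signals of 66.3, 65.7 and 64.5 and a difference of -0.25. The median of the sterol synthesis genes minus that of the fatty acid genes was -0.58, and 17 of 18 sterol synthesis genes lay below the fatty acid median, Sc5d being the exception.

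All 5 genes of sterol export and LXR were lower for the siRNA label than for the high-glucose one, though Abca1 by too little to settle its direction. Their median was -0.67, and 2 were at least 2-fold lower, where 8.21% of all genes were. Nr1h3, which encodes LXR alpha, had signals of 3078, 2777 and 1608, 2.02-fold lower (-1.02 on the log2 scale), with -0.91 at its other probe. Nr1h2, which encodes LXR beta, had signals of 14694, 13760 and 11563 and a difference of -0.48. Mylip, an LXR target whose product marks lipoprotein receptors for breakdown, had signals of 3576, 3621 and 1844, 2.3-fold lower (-1.20), with -1.08 at its other probe. Nr1h3 and Mylip thus stood lower on the siRNA array than on the high-glucose array at both of their probes.

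The exporters under LXR did not differ alike. Abcg1, which passes cholesterol to lipoprotein particles, had signals of 338, 361 and 266 and a difference of -0.67. Abca1, which loads cholesterol onto lipid-poor apolipoprotein, had signals of 5117, 4910 and 5664 and a difference of -0.021, which became 0.011 with normexp background correction, so Abca1 has no settled direction. By median, the 5 genes of sterol export and LXR were not opposite to the sterol synthesis genes. Medians were -0.67 and -0.87, a difference of -0.21 between the 2 groups. Only Abca1 and Abcg1 of the 5 encode exporters, and the group median is the value of Abcg1, read from 1 probe.

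High glucose by label stood close to normal glucose by label. None of the 38 genes was 2-fold lower, where 0.69% of the 15081 genes compared were, and none was 2-fold higher, where 0.816% were. Of the 38, 29 were lower and 9 higher, with a median of -0.054 and a range from -0.23 to 0.14. Sterol synthesis genes were lower in 17 of 18, with a median of -0.10, beside 55.6% lower and a median of -0.01 over all genes. Sqle was the furthest, at -0.23 with signals of 9760, 8065 and 5209, followed by Acat2 at -0.16 and Pmvk at -0.16. Dhcr7 was the exception, at 0.12. Over the 8003 genes with a signal of at least 1000 the central 95% ran from -0.15 to 0.17 and 61.6% were lower. Among members of the 38 with such a signal, Sqle, Pmvk, Sc5d, Acly and Scap lay below that range, all but Sqle by little. Other probes of the same genes did not all share the direction: of 6 probes of sterol synthesis genes 2 were lower (Pmvk at -0.10 and Hsd17b7 at -0.24) and 4 were higher (Mvk at 0.02, Fdft1 at 0.06, Tm7sf2 at 0.01 and Nsdhl at 0.01).

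The array labelled siRNA was also set against the array labelled normal glucose, a comparison that shares the siRNA array with the one above and is no second measurement of it. Of the 38 genes, 37 were lower and Scd1, at 0.030, was higher. At 2-fold, 11 were lower, where 7.94% of the 15582 genes compared were. Sqle at -1.09 and Msmo1 at -1.08 joined the 9 genes named for the high-glucose label. All 18 sterol synthesis genes were lower, with a median of -0.93, and the fatty acid genes had a median of -0.42. Tm7sf2 at -2.04, Acat2 at -1.95 and Idi1 at -1.69 were again the furthest from 0. Neither glucose label gave sterol synthesis signals as low as those of the siRNA label for any of the 18 genes once scaled.

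A share of the genes could be read from more than 1 probe. Of the 38, 13 had at least 2 probes, which gave 14 other probes beside the brightest, all readable. On 13 of the 14 the difference between the siRNA and high-glucose labels had the same direction as at the brightest probe, Stard4 being the exception. Pmvk read -1.42 at its other probe and Mvk -0.74, close to their brightest probes. Fdft1 read -0.17 at a dim probe with signals of 61.6, 62.5 and 64.8, against -0.88 at its bright one. For 25 of the 38 genes, Acat2, Idi1 and Hmgcs1 among them, 1 probe was the whole reading.

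**Figure D3:**
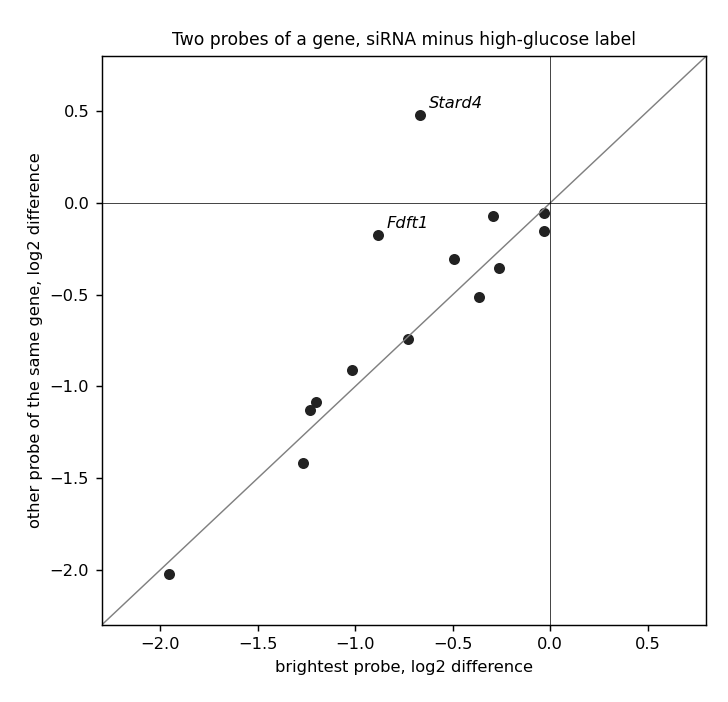
Log2 difference of the siRNA minus the high-glucose label at the brightest probe of a gene (horizontal axis) against each other probe of the same gene (vertical axis), for the 14 other probes of 13 genes, with the line of equal values. Tm7sf2 lies at -1.96 and -2.02, and Stard4 lies far from the line at -0.67 and 0.48.

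Other genes of the same metabolism, from 6 lists of neighbours, did not all share the pattern. Of 15 other genes of sterol and isoprenoid steps, 10 were higher and 5 lower for the siRNA label than for the high-glucose one, with a median of 0.21. Pdss1, which builds the tail of coenzyme Q from isoprenyl units, had signals of 336, 337 and 968 and a difference of 1.30, and Nus1, a subunit of the enzyme that makes dolichol, one of 0.86. Over all genes compared, 7940 of 15626 were higher, so a list with somewhat over that share above 0 is not set apart by its count.

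Of 16 genes of SREBP processing and other SREBP targets, 10 were lower, with a median of -0.15. Only 2 were at least 2-fold lower, where 8.21% of all genes were, so that count does not set the list apart. Acss2, which makes acetyl-CoA from acetate, had signals of 1510, 1396 and 615 and a difference of -1.41. Lpin1, a phosphatidate phosphatase, had a difference of -1.07, and Gpam, which starts glycerolipid synthesis, one of 0.65 at signals of 37.3, 25.1 and 46. Of 8 genes listed as other LXR targets and partners, 5 were lower, with a median of -0.69, and 3 were at least 2-fold lower, beside the same 8.21%. Pltp, the phospholipid transfer protein, had signals of 696, 628 and 286 and a difference of -1.36, Smpdl3a one of -1.27 and Abca7 one of -1.25. Whether LXR controls each gene of this list, Abca7 among them, was not tested. Acss2 and Pltp thus lay past 2-fold on the siRNA array, as Pmvk and Mylip did.

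Genes that move and store sterol and fat differed in both directions. Of 16 genes of sterol transport, storage and uptake, 10 were higher, with a median of 0.29. Only 2 were at least 2-fold higher, where 6.51% of all genes were, so that count does not set the list apart. Nceh1, which frees stored cholesterol from its esters, had signals of 7966, 8067 and 19512 and a difference of 1.05. Gramd1b, which carries cholesterol from the plasma membrane to the endoplasmic reticulum, had signals of 1228, 1341 and 3171, 2.02-fold higher under the siRNA label. Lrp8, a lipoprotein receptor, had a log2 difference of 0.72. Both Nceh1 and Gramd1b were higher on the siRNA array than on either other array. Of 11 lipid droplet genes compared, 7 were higher, with a median of 0.23, Hilpda at 1.30, the droplet coat protein Plin2 at 0.89 and Plin4 at -1.13. Of 17 genes of fatty acid oxidation, 11 were lower and none by 2-fold, where 8.21% of all genes were. Their median was -0.16, with Acadvl, an acyl-CoA dehydrogenase, lowest at -0.75.

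**Figure D4:**
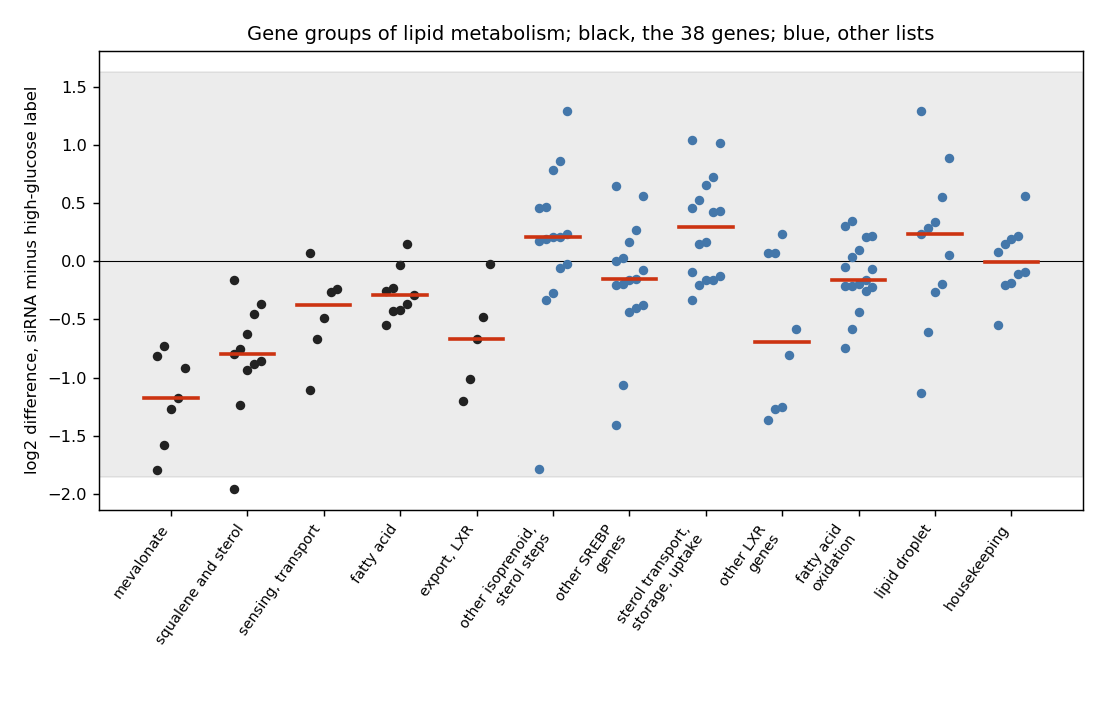
Log2 difference of the siRNA minus the high-glucose label for each gene of the lipid metabolism groups (points) with the group median (bar). Black groups hold the 38 genes, blue groups other lists, and the grey band is the central 95% of all genes, -1.85 to 1.63. The 7 mevalonate genes all lie below 0 with a median of -1.18, while the sterol transport, storage and uptake list has a median of 0.29.

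Other features of the cultures moved with the array labelled siRNA, and their part in the values above was not tested. All 10 proliferation genes were at least 2-fold higher there than on the array labelled high glucose, where 6.51% of all genes were. Their median was 1.99, with summed signals of 35324, 33527 and 127522. Mcm5, of the replication helicase, led them at 2.39. Of 10 housekeeping genes 5 were higher and 5 lower, with a median of -0.0059. Proliferation genes were thus as far above the high-glucose array as Tm7sf2 was below it.

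Markers of several cell types were present. Of 15 endothelial markers 11 were well above background on at least 1 array, with summed signals of 13522, 13311 and 16873; Tie1, Emcn, Erg and Sox18 were not. Kdr, a VEGF receptor, had signals of 7440, 7298 and 8278, while Pecam1 was dim at 61.9, 76.5 and 72.4, and Tek and Cldn5 were not well above background under the siRNA label. Of the endothelial markers 7 of 11 were lower on the siRNA array than on the high-glucose array, with a median of -0.31, Vwf at -1.26 and Cdh5 at 1.51. All 10 fibroblast markers were well above background, with summed signals of 925062, 912310 and 730833. Of these 9 of 10 were lower on the siRNA array, with a median of -1.44, and Lum, a matrix proteoglycan, read 21453, 21306 and 3673. Fibroblast sums were far above endothelial ones on every array, though signals of different probes compare only roughly. The endothelial name is that of the sample description, and these markers do not establish it.

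Of 9 smooth muscle and pericyte markers compared, 7 were lower, with a median of -0.46, summed signals of 99035, 97837 and 59728 and Acta2 at -2.33. Of 9 macrophage markers 6 were lower, with a median of -0.39 and summed signals of 37892, 35489 and 43110, Adgre1 being at -2.06 and Cd14 at 1.52. Of 8 adipocyte markers 5 were lower, with a median of -0.34 and summed signals of 12911, 12337 and 13663. Adipoq, at 224, 210 and 151, and Plin1, at 25.6, 24.7 and 19.2, were dim, as were Retn, Lipe and Slc2a4. The rest of the list was brighter, with Fabp4 at 8583, 8188 and 8991, Pparg at 2776, 2740 and 3815 and Cfd at 1121, 1008 and 490. The 4 epithelial markers compared had a median of 0.46 and the 7 Schwann and neuronal markers one of 0.059. Most of the fibroblast and muscle markers were therefore lower on the same array as the sterol synthesis genes, and between the glucose labels, where sterol synthesis genes differed little, fibroblast markers had a median of 0.031.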

How the data were processed

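RNA was hybridised to 3 single-colour (Cy3) arrays of 1 slide. The files hold each spot's background-subtracted intensity on a linear scale, written by Agilent Feature Extraction 11.0.1.1, per the file headers. The deposited value table is also linear, equal to the processed signal within 0.1% for 100% of 38999 single-spot probes; its column medians were 118, 118 and 129, and how it combined repeated spots is unknown. Further steps of the authors are not given in the sources used here.

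From these, outlier spots (109, 147 and 107) were left out, log2 signals of a probe's spots were averaged, and every array was scaled by subtracting its 75th percentile, taken without control probes. A probe was well above background where at least 50% of its spots were. Where 1 array of a difference was not, the difference is a bound. Accessions matched to RefSeq genes of GRCm38.p6 named 26040 of 39398 probes (66.1%), for 19741 genes. A gene was read from the brightest of its probes that were well above background on any array.

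Arrays were grouped by the labels. The 38 genes, their roles, the other lists, the motifs and the assignments tried were chosen with earlier results of these data known. All 38 are named, with signals for those at least 1.5-fold apart between the siRNA and high-glucose labels and for genes that anchor a role, and up to 3 genes with the largest difference are named of each other list; 1 gene that this rule names is not reported here. The number of arrays limits the precision. Alternatives were 8 settings of processing, 2 other thresholds and 3 other assignments of arrays. R 4.3.3 with limma 3.58.1 and Python 3.11.15 with pandas 2.3.3 were used, and the steps were tested on simulated data.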

Additional observations from a re-analysis of the deposited data

How the results depend on the processing

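Exchanging the 2 high-glucose arrays, as the file names have them, turned the 9 genes at least 2-fold lower on the siRNA label into 0 lower and 9 higher, and the medians of sterol synthesis, fatty acid and export genes into 0.87, 0.29 and 0.67. High glucose then had 11 genes 2-fold lower than normal glucose instead of 0 and a sterol synthesis median of -0.93, and the siRNA group had 0 lower than normal glucose instead of 11. Assigning arrays by slide position, read through the words or the labels of the file names, left 0 and 0 genes lower for siRNA against high glucose and 0 and 0 against normal glucose, put 11 and 9 genes 2-fold higher in high than in normal glucose, and gave medians of -0.10 and 0.10 (sterol synthesis), -0.052 and 0.052 (fatty acid) and -0.019 and 0.019 (export), with 0.93 and 0.87 for sterol synthesis in high against normal glucose. At 1.5-fold and 3-fold the 9 became 20 and 2, and the 11 became 18 and 3. Cyclic loess moved the fatty acid median to -0.39 and normexp the export median to -0.52. Scap reversed with quantile normalization (-0.024) and cyclic loess (-0.040), and Abca1 with normexp (0.011). Normexp, run on median spot and background signals because the files used here carry no means, called 783 genes 2-fold lower and 619 higher for siRNA against high glucose, against 1283 and 1017 in the setting reported. The cause of these shifts was not tested. The 18 sterol synthesis genes were lower on the siRNA label under all 8 settings that kept the assignment. No paired analysis was possible because each group has 1 array, and for the same reason no array could be left out. All arrays share 1 slide and scan, so no block could be used. Dim genes such as Fads2, at 66.3, 65.7 and 64.5, are limited by their signal over background.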
